A study of Danio rerio with 12 samples.

Results

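The response described here is that of the wild-type adult zebrafish heart 7 days after amputation, measured as the difference between 3 arrays of amputated WT hearts and 3 arrays of unamputated WT hearts over every probe set other than the array's controls. These were 6 of the 12 arrays in the series, and the rule that chose them used the labels only. Both WT groups were sexually mature adults of the AB line, with amputation and 7 days of regrowth in the one and no treatment in the other, and no sham-operated heart was among the samples analysed here. The other 6 arrays, 3 amputated and 3 unamputated, were of fish with the transgenes cmlc2a:Ert2-Cre-Ert2, cmlc2a:LnL:GFP and cmlc2a:LrL:dnHIF1a, named dnHIF1a below, in which the heart muscle promoter cmlc2a stands before a tamoxifen-dependent Cre recombinase and before a dominant negative form of the oxygen-regulated factor HIF1a. They served for the shared estimate of the spread and for the test of whether the 2 lines responded differently. The titles describe the transgenic fish as expressing dnHIF1a, and the labels used here say neither how Cre was induced nor whether the arrays of a group came from separate animals or pools, so p-values speak only to the spread among these samples.

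The zebrafish heart regrows muscle after part of the ventricle is cut away. A clot and a transient matrix rich in fibronectin and collagen fill the wound, the outer layer of the heart, the epicardium, is activated and gives rise to fibroblast-like and mural cells, leukocytes enter, and heart muscle cells near the wound partly dismantle their contractile apparatus and divide. A whole heart was measured here, so each value mixes wound and remote tissue.

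Every one of the 15502 probe sets of the Affymetrix Zebrafish Genome Array was tested, and 8793 genes were represented by the probe set with the highest mean. Levels are log2 expression per probe set and differences are amputated minus unamputated WT hearts in log2 units, so that 1 unit is a 2-fold change. The error after ± is the standard error of the difference in the limma fit, with n = 3 arrays in each group, and adjusted p is the limma p after Benjamini-Hochberg correction across the whole array. A gene is said to have risen or fallen where that adjusted p was under 0.05. Of the defining heart muscle genes, myl7 (myosin light chain) read 14.71, 14.58 and 14.62 on amputated and 14.72, 14.71 and 14.73 on unamputated arrays, actc1a (cardiac actin) read 14.60, 14.65 and 14.58 on amputated, against 14.70, 14.69 and 14.69 on unamputated arrays, and cmlc1, another myosin light chain gene, read 14.19, 14.16 and 14.05 on amputated, against 14.25, 14.11 and 14.24 on unamputated arrays. All 3 lay close to the top of the scale, where arrays reached 14.86 to 15.04, and the transcription factor genes nkx2.5 (8.24 to 8.93 over the WT arrays) and gata4 (5.89 to 6.14) were above the array medians of 5.55 to 5.59. The first principal component of the 6 WT arrays held 65.4% of the variance and separated amputated from unamputated hearts. The second held 12.5% and set WT unamputated array 1 apart from the other two. Correlations across probe sets were 0.994 to 0.996 among amputated, 0.992 to 0.994 among unamputated arrays and 0.978 to 0.983 between the groups. The mean level over 35 red blood cell genes was 8.38, 7.79 and 8.39 on amputated and 7.43, 7.53 and 7.28 on unamputated arrays, so it was higher on every amputated than on any unamputated array. The part of this in other results was tested only by adding that mean to the fit, named the erythrocyte covariate below. Since the groups do not overlap in it, amputation and this mean are hard to separate in that fit. A call lost there does not by itself mean that the difference became smaller.

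At 7 days 3532 of 15502 probe sets were called (22.8%), 1702 higher (11.0%) and 1830 lower (11.8%). The sizes were not alike in the 2 directions. Of these probe sets 330 were at least 1 unit higher (2.13% of those tested) and 44 at least 1 unit lower (0.284%). Over genes, 1028 were called higher (11.7%) and 1276 lower (14.5%), with a median difference over all genes of -0.06. These shares are the background against which the gene lists are read. Of the 45 list counts of 1 to 5 members, 27 moved by over 1.5 times without some single WT array, and are not followed one by one below. Among probe sets to which the platform annotation gives no gene 18.4% were called, and among those with 1 gene 24.7%. With the erythrocyte covariate 671 probe sets were called, and 755 with a fold cutoff of 1.2 in limma's treat test. The plot of difference against adjusted p shows that the longest tail is on the side of the genes that rose.

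**Figure D1:**
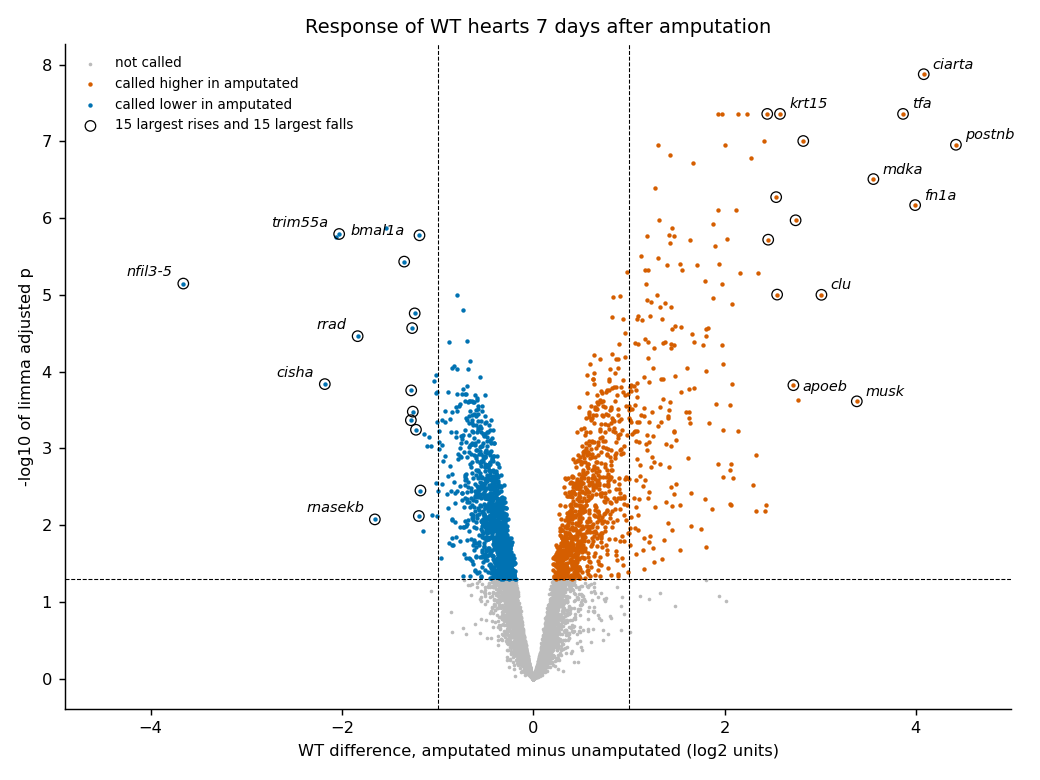
Each point is 1 of the 8793 genes, with the WT difference (amputated minus unamputated, log2 units) on the x axis and -log10 of the limma adjusted p on the y axis. Orange points were called higher, blue points called lower, grey points were not called, and the dashed lines stand at 1 unit either way and at an adjusted p of 0.05. The 15 genes with the largest rise and the 15 with the largest fall are marked by rings, leaving out genes known only by a clone name, and postnb at 4.42 and nfil3-5 at -3.66 are the outermost on either side.

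Several of the largest rises were those of extracellular matrix genes. The matrix protein gene postnb (periostin), which marks activated fibroblasts, read 11.31, 11.25 and 11.71 on amputated arrays, against 7.10, 7.46 and 6.45 on unamputated arrays. The gene was 21.4-fold higher (4.42 ± 0.23, adjusted p = 1.11e-07), and amputated and unamputated values lay far apart. Both fibronectin genes rose: fn1a read 9.85, 9.14 and 10.13 in amputated and 5.63, 6.13 and 5.38 in unamputated hearts, and fn1b read 10.98, 10.49 and 11.03, against 8.50, 7.85 and 7.92 (differences of 3.99 ± 0.26 and 2.74 ± 0.18). Fibronectin is the adhesive glycoprotein of the provisional wound matrix. The 2 other probe sets of fn1a did not share a direction: that at 0.32 was called higher and that at -0.21 was called lower (adjusted p = 0.0457). The type I collagen chain col1a2 read 10.90, 10.90 and 11.19 on amputated arrays and 8.42, 8.27 and 7.83 on unamputated arrays, a 7.08-fold rise (2.82 ± 0.14, adjusted p = 9.89e-08). Its partner chain col1a1a rose by 2.42 units, and the chains col5a2a, col6a3, col15a1a and col11a1a by 2.14, 1.64, 1.42 and 1.03. The other probe set of col5a2a was called at 0.51, with an unamputated mean of 3.71, near the bottom of the scale. The fibrillar type I and type V chains and the bead-forming type VI chain were thus higher. Of chains known best from cartilage, col11a1a was the one given above as higher, while col2a1a (-0.033), col9a2 (0.067) and col11a2 (-0.17) did not pass the test. In all, 7 of 21 collagen chain genes rose and 1 fell, with a median of 0.12. Matrix glycoprotein and proteoglycan genes had 19 of 36 members higher and 0 lower, with a median of 0.45. Laminin chains of the basement membrane were among them, with lamb1a at 1.67 ± 0.093, adjusted p = 1.91e-07 and lamc1 (1.1) and lama5 (0.62) also higher. So were the collagen-binding gene sparc (1.94 ± 0.13, adjusted p = 7.91e-07), the small proteoglycan gene dcn (1.16), the hyaluronan-binding versican gene vcanb (0.66) and the matricellular genes ccn2a (0.95), ccn1 (0.91) and thbs4b (1.94). The hyaluronan synthase genes has2 (0.05) and has3 (-0.13) did not pass the test. The gene col15a1a was no longer called with the erythrocyte covariate, nor lama5 with the fold cutoff.

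Genes for enzymes that cut, fold and crosslink this matrix were higher as well. The gelatinase gene mmp2 read 10.52, 10.17 and 10.54 on amputated arrays, against 7.97, 8.04 and 7.88 on unamputated arrays (2.45 ± 0.11, adjusted p = 4.39e-08). The membrane-bound proteases that activate it, mmp14a and mmp14b, rose by 2.24 and 2.01, and the inhibitors that form complexes with them, timp2a and timp2b, by 0.99 and 1.42. Transcripts of the activators, of the protease they act on and of the inhibitors were therefore each higher in amputated hearts. Protein amount and enzyme activity were not measured. The serine protease inhibitor gene serpine2 rose by 1.08 and the sheddase gene adam10a by 0.61, whereas mmp9 (0.71) and mmp13a (-0.73), proteases often studied in wounds, did not pass the test. Counted as a list, 9 of 14 proteases and inhibitors rose and 0 fell. Of the processing enzymes, pcolce2b, which enhances removal of the procollagen propeptide, read 8.78, 8.35 and 8.97 on amputated and 6.21, 6.24 and 6.03 on unamputated arrays (2.54 ± 0.16, adjusted p = 5.33e-07). The crosslinking enzymes tgm2b (1.97 ± 0.17, adjusted p = 7.15e-06) and loxl2b (1.44 ± 0.15, adjusted p = 4.98e-05) rose, as did the collagen chaperone gene serpinh1b (1.08) and the procollagen-binding gene pcolcea (1.48). The lysyl oxidase gene loxa was called too, but its unamputated mean was under 4, a line below which no size is given because the deposited values carry no measure of background. This list had 8 of 15 members higher and 1 lower. With the erythrocyte covariate 5 collagen chains, 14 glycoproteins and proteoglycans, 5 proteases and inhibitors and 3 processing enzymes were called higher. The genes adam10a, loxa, pcolcea, serpinh1b and timp2b were no longer called with the erythrocyte covariate, nor adam10a with the fold cutoff.

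Markers of the epicardium and of fibroblasts rose together. Of 30 measured markers 22 were higher and 0 lower, 17 of them by at least 1 unit, and the median was 1.29. Their mean level was 9.15, 8.94 and 9.31 on amputated and 7.74, 7.63 and 7.52 on unamputated arrays. More cells of a type and more RNA per cell cannot be told apart in whole hearts, here or for any other cell type. Several of these markers are matrix genes described above, so the lists are not independent. Beyond the matrix, the list included the intermediate filament gene vim (1.42 ± 0.10, adjusted p = 1.65e-06), the simple epithelial keratin genes krt18b (1.83 ± 0.18, adjusted p = 2.70e-05) and krt8 (0.82), the podocalyxin gene podxl (0.71) and clu (clusterin), an extracellular chaperone. The homeobox gene prrx1a, a mark of mesenchymal cells, read 5.63, 5.62 and 6.03 on amputated arrays and 4.77, 4.76 and 4.56 on unamputated arrays (1.06 ± 0.11, adjusted p = 4.18e-05), while its paralog prrx1b did not pass the test (0.05). The factor snai2, which drives epithelial cells towards a mesenchymal state, rose by 1.12 (5.90, 5.86 and 6.34 in amputated, 5.27, 4.73 and 4.74 in unamputated hearts), although its 2 other probe sets, at 0.013 and 0.25, were not called. Factors that define the embryonic epicardium did not pass the test: the difference was 0.17 for tbx18, -0.15 for wt1a and 0.49 for aldh1a2, the enzyme that makes retinoic acid. Elsewhere in the retinoic acid pathway the retinaldehyde reductase gene dhrs3a (1.21 ± 0.17, adjusted p = 0.000448) and the receptor gene rxrga (0.75 ± 0.11, adjusted p = 0.000485) rose, and 6 of 23 members were higher and 3 lower. Smooth muscle and mural cell markers had 5 of 13 members higher and 1 lower. The actin-binding gene tagln led them, at 9.88, 9.59 and 10.50 on amputated and 7.38, 7.85 and 7.09 on unamputated arrays (2.55 ± 0.22, adjusted p = 9.92e-06), followed by the myosin light chain kinase gene mylka (1.09 ± 0.18, adjusted p = 0.00137). Called higher with the erythrocyte covariate were 17 epicardium and fibroblast, 2 retinoic acid pathway and 2 smooth muscle members. The gene krt8 was no longer called with the erythrocyte covariate.

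Genes of the cytoskeleton that every moving cell uses were also higher, 27 of 84, with 6 lower and a median of 0.11. The annexin gene anxa1a, whose protein binds membrane phospholipids and dampens inflammation, read 12.84, 12.74 and 12.85 on amputated and 10.93, 10.93 and 10.77 on unamputated arrays (1.93 ± 0.088, adjusted p = 4.39e-08). The microtubule-associated protein gene map1aa, which was in no list, fell, with 4.60, 4.72 and 4.65 in amputated and 6.51, 5.13 and 5.87 in unamputated hearts (-1.18 ± 0.23, adjusted p = 0.00354). The actin crosslinker gene flna rose by 0.91 and the annexin gene anxa4 by 0.79. Adhesion genes were mixed. The tetraspanin gene cd9b rose (1.77 ± 0.19, adjusted p = 4.53e-05) and its relative cd82a fell (-1.28 ± 0.16, adjusted p = 0.000176), with 7.88, 7.95 and 7.58 on amputated arrays, against 9.10, 8.73 and 9.41 on unamputated arrays. The paralog cd82b rose by 1.2, while its 2 other probe sets, at -0.08 and -0.013, were not called. Of 40 adhesion genes 9 rose and 3 fell. Among epithelial and keratin markers 10 of 39 rose and 2 fell. The keratin gene krt15 read 11.37, 11.36 and 11.29 on amputated and 8.57, 8.67 and 9.04 on unamputated arrays (2.58 ± 0.12, adjusted p = 4.39e-08), and krt94 rose by 1.12. The adherens junction gene cdh1 (E-cadherin) was called but read under 4 in both groups, so the defining epithelial marker was near the bottom of the scale on all 6 arrays. The mean level of the list was 5.97, 5.98 and 6.26 on amputated and 5.73, 5.68 and 5.70 on unamputated arrays. The secreted olfactomedin-like gene olfml3b belonged to none of the lists and was among the 15 largest rises (9.51, 9.06 and 9.68 in amputated, 7.25, 7.03 and 6.60 in unamputated hearts, 2.46 ± 0.18, adjusted p = 1.91e-06). Adding the erythrocyte covariate left 4 cytoskeletal, 3 adhesion and 5 epithelial genes called higher. In the actin and tubulin cytoskeleton list the count of lower genes was 3 without WT amputated array 1 and 3 in a fit of the WT arrays alone. The gene map1aa was no longer called with the erythrocyte covariate, nor cdh1 with the fold cutoff.

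**Figure D2:**
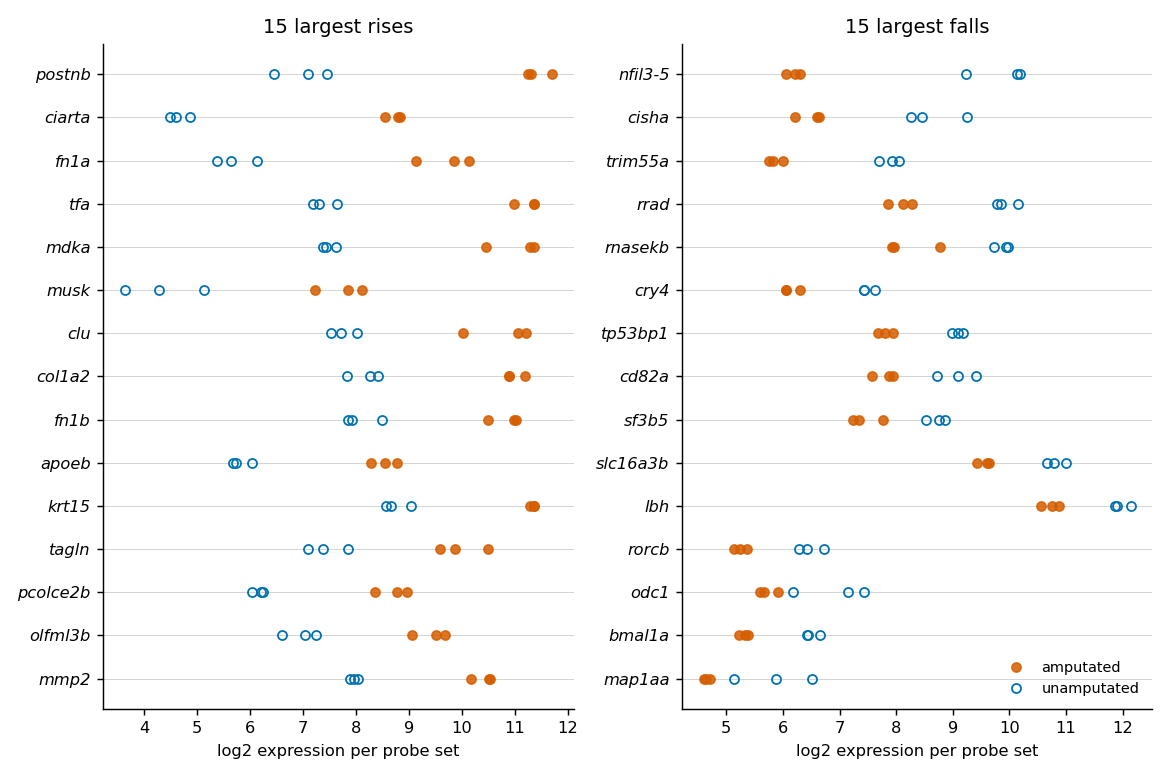
Each row is 1 of the 15 genes with the largest rise or the 15 with the largest fall, with the log2 level per probe set on the x axis. Filled orange circles are the 3 amputated and open blue circles the 3 unamputated WT arrays. In none of the 30 rows do the groups overlap, as the rule that chose the genes required, and the gap is widest for postnb among the rises and for nfil3-5 among the falls.

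Secreted signals and their receptors changed in both directions. Of 72 ligand genes 11 rose and 7 fell, near the background shares, and the median was -0.04. The heparin-binding growth factor gene mdka (midkine) read 11.29, 10.45 and 11.36 on amputated arrays, against 7.38, 7.43 and 7.62 on unamputated arrays, and was 11.8-fold higher (3.56 ± 0.21, adjusted p = 3.10e-07). The next largest rise among ligand genes was that of the activin subunit gene inhbb, at 1.65. The progranulin gene grna rose by 0.79, the platelet-derived growth factor gene pdgfaa by 0.55 and the insulin-like growth factor gene igf2b by 0.80. The muscle growth inhibitor gene mstnb (myostatin) fell (-0.71 ± 0.090, adjusted p = 0.000194), with 5.11, 5.27 and 5.24 in amputated and 5.79, 6.02 and 5.94 in unamputated hearts. Among ligands of families studied in heart regrowth, the neuregulin gene nrg2a (-0.26), fgf2 (-0.20), bmp2a (-0.18) and igf2a (0.21) did not pass the test. Receptor genes had 7 of 45 higher (15.6%) and 6 lower (13.3%), against 11.7% and 14.5% over all genes. The receptor kinase gene musk, which organises the nerve-muscle synapse, read 7.84, 7.22 and 8.11 on amputated and 5.12, 3.63 and 4.27 on unamputated arrays (3.38 ± 0.44, adjusted p = 0.000244). The semaphorin and VEGF co-receptor gene nrp1a rose by 0.92 and the TGF-beta family receptor gene acvrl1 by 0.82, while the Wnt receptor gene fzd10 fell by 0.81 (its other probe set gave -0.17 and was not called). In the Notch pathway the ligand gene jag1b (0.60 ± 0.085, adjusted p = 0.000423) and the receptor gene notch2 (0.75 ± 0.12, adjusted p = 0.000813) rose, although the other probe sets of notch2 gave 0.44 and -0.017. Of 28 Notch pathway members 3 were higher (10.7%) and 5 lower (17.9%), near the background shares, and the median of -0.06 was that of all genes. Of the cytokine and STAT genes, the inhibitor gene cisha, a target of STAT5 in mammals, fell 4.53-fold (6.60, 6.21 and 6.63 on amputated, 9.25, 8.27 and 8.46 on unamputated arrays, -2.18 ± 0.26, adjusted p = 0.000146). The factor gene cebpg rose by 0.65, and 4 of 25 members were higher (16%) and 3 lower (12%), also near the background shares. When the erythrocyte covariate was added, 6 ligand and 2 receptor genes were called higher and 1 and 0 lower. In the growth factors and secreted signals list the count of lower genes was 4 in a fit of the WT arrays alone. The genes acvrl1, fzd10 and igf2b were no longer called with the erythrocyte covariate, nor pdgfaa with the fold cutoff.

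Leukocyte genes were higher in amputated hearts. Of 41 macrophage and general leukocyte markers 25 rose and 1 fell, with a median of 0.61 and mean levels of 8.22, 8.36 and 8.47 on amputated and 7.77, 7.79 and 7.67 on unamputated arrays. Neutrophil markers had 9 of 16 higher and 1 lower. The member called lower was the myeloperoxidase gene mpx, a defining neutrophil marker (-0.31), and its other probe sets gave -0.13, 0.17 and 0.033. Lymphocyte markers had 0 of 13 higher and 2 lower (15.4%, near the 14.5% over all genes). Their mean levels of 5.36 to 5.39 on amputated and 5.38 to 5.43 on unamputated arrays overlapped. The lipid carrier gene apoeb, a microglia and macrophage marker in zebrafish, read 8.54, 8.28 and 8.78 in amputated and 5.74, 6.03 and 5.67 in unamputated hearts (2.72 ± 0.33, adjusted p = 0.00015). In the list of the lysosome, the compartment in which phagocytes digest what they take up, 28 of 52 rose and 1 fell, with a median of 0.35. They included the cysteine proteases lgmn (0.88 ± 0.10, adjusted p = 8.91e-05), ctsk (1.03), ctsz (1.06), ctsba (0.94) and ctsla (0.73), the aspartic protease ctsd (0.69), the glycosidases man2b1 (0.73) and fuca2 (0.64), and subunits of the acidifying proton pump such as atp6v0ca (0.72). The cholesterol exporter gene npc1 read 7.41, 7.39 and 7.32 on amputated arrays, against 6.31, 6.0 and 6.26 on unamputated arrays (1.18 ± 0.10, adjusted p = 7.13e-06). The membrane protein genes lamp1b (0.03) and lamp2 (0.0067) did not pass the test, so the rise was not shared by every lysosomal gene. With the erythrocyte covariate 4 lysosomal genes, 6 macrophage and leukocyte markers and 0 neutrophil markers were called higher. In the neutrophil markers list the count of higher genes was 4 without WT amputated array 2 or WT unamputated array 3, 5 without WT amputated array 1 and 4 in a fit of the WT arrays alone. The genes atp6v0ca, ctsd, ctsk, ctsla, ctsz, fuca2, man2b1 and mpx were no longer called with the erythrocyte covariate, nor mpx with the fold cutoff. The call was also lost for mpx without each of 10 single arrays (adjusted p up to 0.165).

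Some plasma protein and lipid genes rose, while the medians of the 2 lists, -0.067 and -0.082, lay close to that over all genes (-0.06). Of the plasma protein genes 17.7% were higher and 3.23% lower, and of the lipid genes 16% and 10%. The shares over all genes were 11.7% and 14.5%. Transferrin, the iron carrier of blood plasma encoded by tfa, was among the largest rises, with 11.37, 10.99 and 11.37 on amputated arrays and 7.64, 7.19 and 7.30 on unamputated arrays, a 14.6-fold difference (3.87 ± 0.17, adjusted p = 4.39e-08). Clusterin (clu) read 11.07, 10.03 and 11.21 in amputated and 7.72, 8.02 and 7.53 in unamputated hearts (3.01 ± 0.27, adjusted p = 9.99e-06), the kininogen gene kng1 rose by 1.3 and the complement gene c4 by 1.44. Typical liver products such as ambp (-0.30), fetub (-0.23), fgg (-0.15) and serpinc1 (-0.20) did not pass the test. Of 62 plasma protein genes 11 rose and 2 fell, and the mean level of liver, gut, pancreas and gonad markers was 4.78 to 4.85 on amputated and 4.76 to 4.87 on unamputated arrays, so the groups overlapped. Among lipid genes, the scavenger and endocytic receptor gene lrp1aa (8.62, 8.43 and 8.86 in amputated, 6.84, 6.44 and 6.28 in unamputated hearts, 2.12 ± 0.14, adjusted p = 7.82e-07) and the endothelial lipase gene lipg (1.60 ± 0.22, adjusted p = 0.000331) rose, and the sterol synthesis gene dhcr7 fell by 0.34. The list of lipid transport and sterol synthesis had 8 of 50 members higher and 5 lower. Of 128 solute carriers 24 rose and 9 fell. Those that rose included amino acid carriers: slc3a2a, the heavy chain shared by several amino acid exchangers, read 7.06, 7.45 and 7.31 on amputated and 5.46, 5.24 and 5.49 on unamputated arrays (1.88 ± 0.17, adjusted p = 1.09e-05), and the glutamine carrier gene slc38a5b rose by 1.39 (7.88, 7.55 and 7.81 in amputated, 6.42, 6.45 and 6.19 in unamputated hearts). The leucine carrier gene slc43a1a (0.98), the glutamate carrier gene slc1a3a (0.88) and the phosphate carrier gene slc20a1a (2.06) were higher too, while the monocarboxylate carrier gene slc16a3b, which exports lactate, fell (9.64, 9.61 and 9.43 on amputated, 10.79, 10.67 and 11.00 on unamputated arrays, -1.26 ± 0.17, adjusted p = 0.000332). The glutathione transferase genes gstt1a (1.54 ± 0.15, adjusted p = 2.59e-05) and gstt1b (0.83) rose. Under the erythrocyte covariate 6 plasma protein, 5 lipid and 7 solute carrier genes were called higher, and 1 solute carrier gene lower. In the lipid transport and sterol synthesis list the count of higher genes was 5 without WT amputated array 3. The genes slc16a3b and slc20a1a were no longer called with the erythrocyte covariate, nor dhcr7 with the fold cutoff.

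Of the gene lists, the one with the most falls serves the making of ribosomes, the process in the nucleolus that transcribes, trims and assembles ribosomal RNA. Of 88 measured genes 50 fell and 0 rose, against 14.5% lower among all genes, and the median was -0.41. No single change was large: the biggest fall was 0.99 units, for fbl, the methyltransferase of ribosomal RNA, with 7.76, 7.68 and 7.96 on amputated arrays and 9.27, 8.89 and 8.22 on unamputated arrays (-0.99 ± 0.20, adjusted p = 0.00364). The polymerase subunit gene polr1c, shared by RNA polymerases I and III, read 5.80, 5.84 and 6.0 in amputated and 6.97, 6.72 and 6.62 in unamputated hearts (-0.89 ± 0.11, adjusted p = 0.000184), and gnl3l, a nucleolar GTPase, read 6.90, 6.71 and 6.46 in amputated, against 7.83, 7.40 and 7.61 in unamputated hearts (-0.92 ± 0.13, adjusted p = 0.000323). Other members that fell came from each stage, among them polymerase I itself (polr1e (-0.64)), the H/ACA particle that modifies ribosomal RNA (nhp2 (-0.52)), the small subunit processome (noc4l (-0.90), imp4 (-0.71) and mphosph10 (-0.50)), and large subunit assembly (wdr12 (-0.74), bop1 (-0.39), nle1 (-0.54) and noc2l (-0.76)). The mean level of the list was 6.62, 6.60 and 6.69 on amputated and 7.27, 7.00 and 6.89 on unamputated arrays, so that all amputated arrays lay below all unamputated ones and WT unamputated array 1 was the highest. In the fit with the erythrocyte covariate its median was -0.39 and 1 member, polr1c, was called lower. With the fold cutoff 8 members were, and in a fit of the WT arrays alone 36. The proteins of the finished cytosolic ribosome behaved otherwise: 1 of 71 rose and 1 fell, with a median of 0.0033, at mean levels of 13.23, 13.19 and 13.33 on amputated and 13.24, 13.24 and 13.24 on unamputated arrays, where the scale has little room above. The cause of the ribosome biogenesis fall was not tested. In the ribosome biogenesis and nucleolus list the count of lower genes was 33 without WT amputated array 2.

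Genes that start and feed protein synthesis were more often lower than higher. Of 88 translation factor and tRNA synthetase genes 28 fell and 3 rose, with a median of -0.12. They included the exchange factor subunits eif2b1 (-0.50 ± 0.081, adjusted p = 0.00109) and eif2b3 (-0.45), the cap-binding gene eif4e1c (-0.96) and the synthetase genes for lysine, glutamine and valine (kars1 (-0.40), qars1 (-0.60) and vars1 (-0.60)). Counted with the erythrocyte covariate, 0 members were called higher and 2 lower. The genes eif2b1, eif2b3, eif4e1c, kars1, qars1 and vars1 were no longer called with the erythrocyte covariate, nor eif2b1, eif2b3, kars1, qars1 and vars1 with the fold cutoff.

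The cytosolic chaperonin that folds actin and tubulin had subunit genes among the falls (cct4 (-0.41), cct5 (-0.38), cct6a (-0.37), cct7 (-0.37) and cct8 (-0.43)), and the mitochondrial chaperonin pair hspd1 and hspe1 fell as well, with hspd1 at 9.53, 9.53 and 9.76 on amputated arrays and 10.86, 10.32 and 10.26 on unamputated arrays (-0.87 ± 0.15, adjusted p = 0.00172). Of 54 heat shock and folding genes 21 fell and 5 rose, with a median of -0.21. Members that rose were of another kind: hspa12a (1.2 ± 0.096, adjusted p = 4.80e-06), a distant relative of the main chaperone family, the factor gene hsf2 (1.68 ± 0.17, adjusted p = 4.09e-05), the small heat shock genes hspb6 (1.47) and hspb8 (0.61), and the collagen chaperone gene serpinh1b. In the endoplasmic reticulum, the chaperone genes hsp90b1 (-0.83 ± 0.16, adjusted p = 0.00278), hyou1 (-0.70 ± 0.13, adjusted p = 0.00219), dnajc3a (-0.72) and manf (-0.91), all known targets of the unfolded protein response, fell, while creb3l2 (0.66 ± 0.087, adjusted p = 0.000249), a factor for secretion of matrix, and the prolyl isomerase gene ppib (0.57) rose. This list had 10 of 89 members higher (11.2%) and 14 lower (15.7%), near the shares over all genes of 11.7% and 14.5%. Its median of -0.07 was also near that of all genes (-0.06). For heat shock and folding genes the erythrocyte covariate left 2 members called higher and 0 lower, and for the secretory list 1 and 5. In the secretory pathway and ER folding list the count of higher genes was 6 without WT amputated array 3 or WT unamputated array 2. In the secretory pathway and ER folding list the count of lower genes was 9 without WT amputated array 1 or WT amputated array 2 and 8 in a fit of the WT arrays alone. The genes cct4, cct5, cct6a, cct7, cct8, hspb6, hspb8, hspd1, hspe1, manf, ppib and serpinh1b were no longer called with the erythrocyte covariate, nor cct4, cct5, cct6a, cct7, cct8 and ppib with the fold cutoff.

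Genes of protein breakdown were called in both directions. Of 89 genes of the proteasome, of muscle ubiquitin ligases and of autophagy 32 fell and 9 rose, with a median of -0.20. Among proteasome subunits, those of the interferon-inducible immunoproteasome, which prepares peptides for antigen presentation, had the 4 largest falls. The subunit gene psmb9a read 6.76, 6.55 and 6.74 on amputated and 7.59, 7.82 and 7.74 on unamputated arrays (-1.03 ± 0.12, adjusted p = 0.000131), psmb8a differed by -1.11 ± 0.18, psmb12 by -1.15 ± 0.17 and psmb13a by -0.95 ± 0.15. For psmb9a the groups did not overlap. Constitutive subunits moved less (psmb1 (-0.42), psmb3 (-0.35) and psmc3 (-0.51)). The gene psmd10, also in this list, differed by -0.79. Members that rose included the autophagy genes ulk1b (1.21) and wipi1 (0.64), together with the ligase genes fbxo32 (0.78) and fbxo25 (7.52, 7.63 and 7.17 in amputated, 4.86, 5.48 and 5.75 in unamputated hearts, 2.08 ± 0.19, adjusted p = 1.31e-05). The muscle RING-finger ligase gene trim55a, whose protein sits in the sarcomere, fell 4.08-fold, with 5.82, 5.75 and 6.01 on amputated arrays and 7.93, 7.69 and 8.05 on unamputated arrays (-2.03 ± 0.14, adjusted p = 1.61e-06), and its relative trim63b fell by 0.56. The list of interferon and antigen presentation genes, which holds the same immunoproteasome subunits, had 2 of 28 members higher and 7 lower, and its mean level was 8.05, 8.17 and 8.10 on amputated and 8.32, 8.14 and 8.11 on unamputated arrays, with overlap. Of the protein breakdown list 2 members were called higher and 10 lower with the erythrocyte covariate. In the proteasome and ubiquitin ligases of muscle list the count of lower genes was 19 in a fit of the WT arrays alone. The genes psmb1, psmb3, trim63b, ulk1b and wipi1 were no longer called with the erythrocyte covariate, nor psmb1, psmb3, psmc3, trim63b and wipi1 with the fold cutoff.

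**Figure D3:**
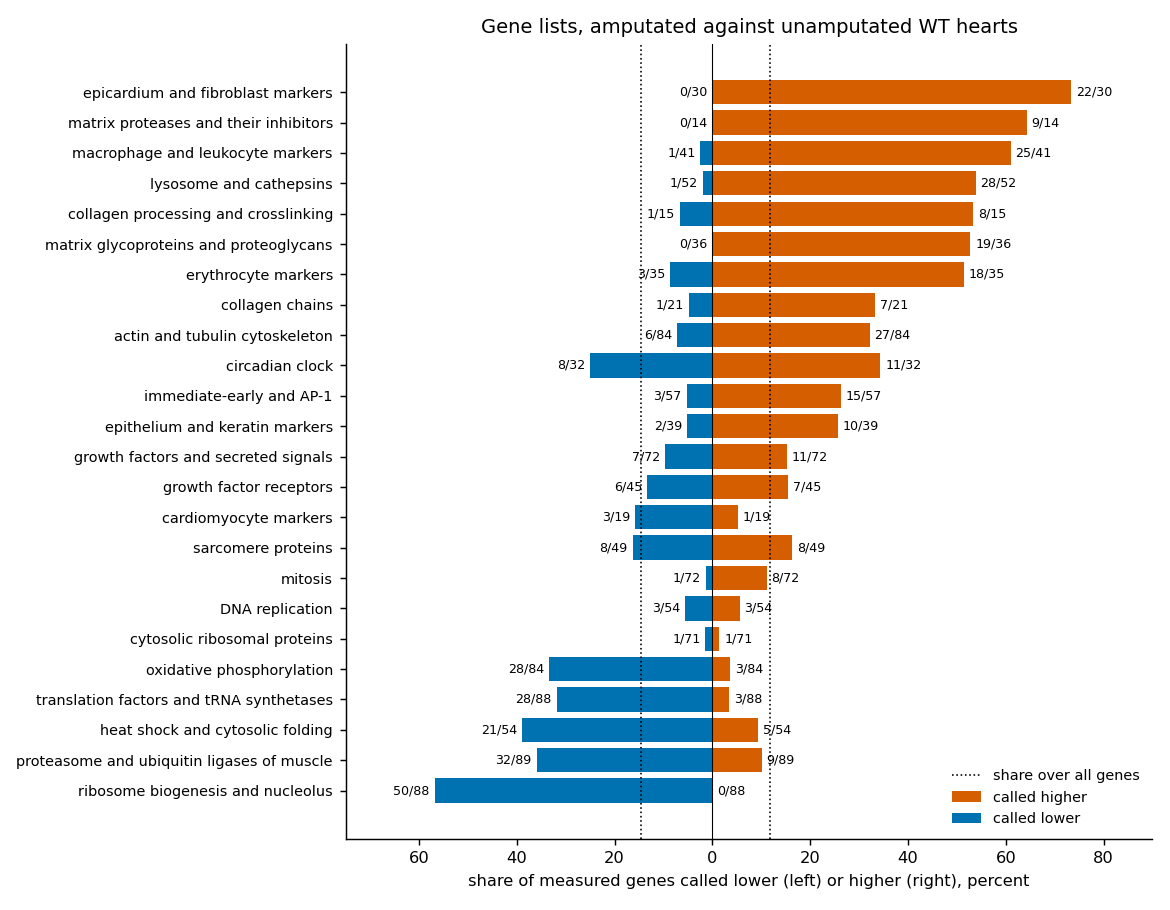
Horizontal bars give, for 24 of the gene lists, the share of measured members called higher (orange, to the right) and called lower (blue, to the left), in percent, with the counts of members at the bar ends. Dotted lines mark the shares over all 8793 genes, 11.7% higher and 14.5% lower. Epicardium and fibroblast markers, matrix proteases and their inhibitors, and macrophage and leukocyte markers reach furthest to the right, and ribosome biogenesis furthest to the left.

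Heart muscle genes changed in both directions. Of 49 sarcomere genes 8 rose and 8 fell, with a median of -0.017 and shares near those over all genes (11.7% higher and 14.5% lower), and of 19 cardiomyocyte markers 1 rose and 3 fell. The slow myosin heavy chain gene myh7 read 10.44, 10.01 and 10.57 in amputated and 7.88, 8.53 and 8.66 in unamputated hearts (1.98 ± 0.30, adjusted p = 0.00058), where the groups did not overlap. The tropomodulin gene tmod4, whose protein caps actin filaments, rose by 2.07 with a wide spread (8.23, 6.88 and 8.22 in amputated, 5.63, 6.10 and 5.40 in unamputated hearts). With the erythrocyte covariate the difference of tmod4 was only 0.15 (adjusted p = 0.754). The Z-disc gene ldb3a (-0.66 ± 0.073, adjusted p = 7.30e-05) fell, and nexn, another Z-disc gene, fell by 0.59. The LIM gene fhl1b rose (0.86 ± 0.099, adjusted p = 0.000103). Many contractile genes sat near the top of the scale, where the scale has little room for a rise. Skeletal muscle markers had 0 of 32 members higher and 5 lower (15.6%, near the 14.5% over all genes), with a median of 0.095. The genes myog (-0.04) and myod1 (0.08), which define skeletal muscle precursors, did not pass the test. Genes of calcium handling and membrane excitability had 7 of 37 members lower (18.9%) and 3 higher (8.11%), with a median of -0.13. These shares were near the 14.5% and 11.7% over all genes. The small GTPase gene rrad, whose product restrains the L-type calcium channel, fell 3.57-fold, with 8.28, 7.86 and 8.13 on amputated arrays and 10.15, 9.85 and 9.78 on unamputated arrays (-1.84 ± 0.19, adjusted p = 3.45e-05). Its relative rem1 fell by 0.77. The gap junction gene gja1b (connexin 43) rose (1.06 ± 0.16, adjusted p = 0.000592), with 6.93, 6.81 and 7.09 on amputated arrays and 6.33, 5.58 and 5.74 on unamputated arrays. Of 59 cardiac transcription factor and stress genes 5 rose and 8 fell, no more than the background shares. By at least 1 unit, 3 of them rose and 1 fell. The myocardin-related coactivator gene mrtfab rose (0.71 ± 0.088, adjusted p = 0.000181), the ventricular factor gene irx4a fell by 0.61, and gata4 (-0.14), nkx2.5 (-0.32) and tbx5a (-0.61) did not pass the test. The limb and heart gene lbh, which was not in the cardiac factor list, fell to 10.88, 10.76 and 10.56 in amputated hearts, against 12.15, 11.86 and 11.91 in unamputated hearts (-1.24 ± 0.12, adjusted p = 1.74e-05). Sarcomere genes had 2 members called higher and 2 lower once the erythrocyte covariate was in the fit, and calcium handling genes 1 and 2. In the sarcomere proteins list the count of higher genes was 3 without WT amputated array 3, 4 without WT amputated array 1, 5 without WT unamputated array 2 or WT unamputated array 3 and 5 in a fit of the WT arrays alone. In the calcium handling and ion channels of heart muscle list the count of lower genes was 3 without WT amputated array 1 or WT amputated array 2, 4 without dnHIF1a unamputated array 1 and 4 in a fit of the WT arrays alone. In the cardiac transcription factors and stress genes list the count of lower genes was 4 without WT amputated array 1 and 5 without dnHIF1a unamputated array 1 or WT amputated array 2 or WT amputated array 3 or WT unamputated array 3. The genes irx4a, nexn, rem1 and tmod4 were no longer called with the erythrocyte covariate, nor nexn with the fold cutoff.

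Genes of energy metabolism mostly shifted by fractions of a unit. In the citrate cycle and fatty acid oxidation list 1 gene rose and 1 fell by at least 1 unit, and in the glycolysis list 1 fell so far. Of 84 oxidative phosphorylation genes 28 fell and 3 rose, with a median of -0.18 and mean levels of 11.49, 11.54 and 11.49 on amputated and 11.64, 11.68 and 11.69 on unamputated arrays, which did not overlap. With the erythrocyte covariate 2 were called lower. The copper chaperone gene cox17, needed to assemble cytochrome c oxidase, fell (-0.55 ± 0.065, adjusted p = 0.000118), while cox4i2, the isoform of subunit 4 that mammals use in low oxygen, rose (7.18, 7.15 and 7.21 on amputated, 6.08, 6.33 and 6.43 on unamputated arrays, 0.90 ± 0.094, adjusted p = 4.42e-05). In the citrate cycle and fatty acid oxidation 3 of 76 genes rose and 8 fell. The gene cpt1b, which admits fatty acids to mitochondria, rose (0.85 ± 0.13, adjusted p = 0.000618), and the acetyl-CoA acetyltransferase gene acat2 fell (-1.07 ± 0.17, adjusted p = 0.000943). The kinase gene pdk2b, whose protein switches off pyruvate dehydrogenase, read 6.85, 6.84 and 7.23 on amputated and 4.39, 3.70 and 5.55 on unamputated arrays (2.43 ± 0.54, adjusted p = 0.00664). The citrate synthase gene cs fell by 0.70. Glycolysis and glycogen genes had 6 of 45 higher and 6 lower (13.3% each way), near the shares over all genes of 11.7% and 14.5%. The kinase gene pfkma rose by 0.92 and the muscle mutase gene pgam2 fell by 0.57. Among hypoxia targets outside glycolysis 14 of 39 rose and 5 fell, but the median of -0.06 was that of all genes. Members that rose included matrix, clock and iron genes named elsewhere (loxa, bhlhe41 and tfa), and the prolyl hydroxylase gene egln3 (-0.54) and vegfaa (-0.06) did not pass the test. Among hypoxia targets 3 were called higher with the erythrocyte covariate and 1 lower. In the oxidative phosphorylation list the count of lower genes was 17 without WT amputated array 1, 18 without WT amputated array 3 and 17 in a fit of the WT arrays alone. In the glycolysis and glycogen list the count of higher genes was 3 without WT amputated array 3 and 3 in a fit of the WT arrays alone. In the glycolysis and glycogen list the count of lower genes was 3 without WT amputated array 3 and 3 in a fit of the WT arrays alone. The genes cs, loxa, pdk2b, pfkma and pgam2 were no longer called with the erythrocyte covariate, nor cs with the fold cutoff.

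Proliferation genes gave no uniform shift at 7 days. Of 54 DNA replication genes 3 rose and 3 fell, with a median of 0.088. That was 5.56% each way, below the shares over all genes of 11.7% higher and 14.5% lower. The loading-clamp gene pcna read 9.55, 9.35 and 10.39 on amputated and 9.64, 10.13 and 9.24 on unamputated arrays, with overlap (0.093 ± 0.25, adjusted p = 0.819). Mean levels of the replication list were 5.95, 5.85 and 6.32 on amputated and 5.91, 6.22 and 5.83 on unamputated arrays, highest on WT amputated array 3 and on WT unamputated array 2. The mitosis list showed the same 2 arrays on top (5.42, 5.40 and 5.73 on amputated, 5.32, 5.59 and 5.29 on unamputated arrays), and 8 of 72 members rose and 1 fell. The contractile ring gene anln was the member with the smallest p (6.62, 6.45 and 7.28 in amputated, 5.73, 5.87 and 5.53 in unamputated hearts, 1.07 ± 0.20, adjusted p = 0.00262), although its other probe set gave 0.067. The mitotic kinase genes plk1 (0.64) and cdk1 (0.63) and the proliferation antigen gene mki67 (-0.06) did not pass the test. Of 47 cyclin and cell cycle control genes 8 rose (17%) and 4 fell (8.51%), against 11.7% and 14.5% over all genes. Members that rose included restrainers of the cycle: the cyclin G2 gene ccng2 (1.17 ± 0.22, adjusted p = 0.00261), the kinase inhibitor gene cdkn1bb (0.65 ± 0.14, adjusted p = 0.00546), the antiproliferative gene btg1 (0.65) and the Hippo kinase gene lats1 (0.38). The D-type cyclin gene ccnd1 did not pass the test (0.24). Outside the cell cycle control list, odc1, which makes polyamines for growing cells, fell (5.6, 5.67 and 5.91 on amputated, 7.44, 7.15 and 6.18 on unamputated arrays, -1.2 ± 0.27, adjusted p = 0.00761). In the p53 and apoptosis list 12 of 39 members rose and 5 fell. Both sides of the balance were present: the p53-induced gene tp53inp1 (1.45 ± 0.10, adjusted p = 1.33e-06) rose, and so did the survival genes mcl1a (1.01) and bcl2l1 (0.88). The caspase-releasing gene diabloa fell (-0.69 ± 0.071, adjusted p = 4.05e-05). The caspase gene caspa, also in this list, rose by 0.79. The DNA damage gene tp53bp1 fell (7.68, 7.80 and 7.94 in amputated, 8.99, 9.09 and 9.18 in unamputated hearts, -1.28 ± 0.18, adjusted p = 0.00043), as did sf3b5, a subunit of the splicing factor SF3b (7.23, 7.35 and 7.77 in amputated, 8.75, 8.87 and 8.53 in unamputated hearts, -1.27 ± 0.12, adjusted p = 2.71e-05). The gene rnasekb (ribonuclease kappa), in none of the lists, read 7.96, 7.93 and 8.77 on amputated and 9.94, 9.72 and 9.97 on unamputated arrays (-1.66 ± 0.38, adjusted p = 0.00843), and its other probe set, at -1.16, was not called. The erythrocyte covariate left 0 mitosis, 1 cell cycle control and 3 p53 and apoptosis genes called higher. In the mitosis list the count of higher genes was 1 without WT amputated array 3, 3 without WT unamputated array 1, 4 without WT amputated array 1 or WT unamputated array 3, 5 without dnHIF1a unamputated array 1 and 3 in a fit of the WT arrays alone. The genes anln, bcl2l1, btg1, ccng2, cdkn1bb, lats1, mcl1a, odc1, rnasekb and tp53bp1 were no longer called with the erythrocyte covariate, nor bcl2l1, btg1, cdkn1bb and lats1 with the fold cutoff. With the covariate the differences were 0.88 for anln, 0.39 for bcl2l1, 0.65 for btg1, 1.25 for ccng2 and 0.43 for cdkn1bb. They were 0.32 for lats1, 0.55 for mcl1a, -1.58 for odc1, -0.99 for rnasekb and -0.97 for tp53bp1. Those of btg1, ccng2 and odc1 were thus no smaller than without it.

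Immediate-early genes, which respond to a stimulus before new protein is made, were higher in part. Of 57 immediate-early genes 15 rose and 3 fell, with a median of 0.19. The stress factor gene atf3 read 8.99, 8.64 and 8.38 on amputated arrays, against 7.51, 7.22 and 7.06 on unamputated arrays (1.41 ± 0.20, adjusted p = 0.000374). The mRNA decay gene zfp36l1a (0.98 ± 0.079, adjusted p = 5.03e-06), the MAP kinase phosphatase gene dusp4 (1.01), the kinase gene sgk1 (1.00) and the AP-1 gene junba (1.3) also rose. The inhibitor of differentiation gene id2b fell (-1.01 ± 0.19, adjusted p = 0.00279), and the AP-1 genes jun (0.21) and fosab (0.19) did not pass the test. By the fit with the erythrocyte covariate 5 members were called higher and 1 lower. The gene junba was no longer called with the erythrocyte covariate.

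Genes of the circadian clock, the feedback loop by which cells keep a daily rhythm, held several of the largest changes. Of 32 clock genes 11 rose and 8 fell. The labels give no hour of collection, so amputation and the hour cannot be told apart for any of them. The clock repressor gene ciarta read 8.55, 8.80 and 8.83 on amputated arrays, against 4.48, 4.59 and 4.86 on unamputated arrays (4.08 ± 0.14, adjusted p = 1.33e-08). The factor gene nfil3-5, which represses through D-box elements, read 6.31, 6.21 and 6.06 in amputated and 10.18, 9.24 and 10.14 in unamputated hearts, the largest fall of any gene (-3.66 ± 0.31, adjusted p = 7.13e-06). The groups were far apart for both genes, and WT unamputated array 2 was the lowest of the unamputated arrays for nfil3-5. On the positive arm of the loop, the activator gene bmal1a fell to 5.33, 5.23 and 5.39 on amputated arrays, against 6.44, 6.42 and 6.66 on unamputated arrays (-1.19 ± 0.084, adjusted p = 1.67e-06), and the activating nuclear receptor gene rorcb fell too (5.14, 5.25 and 5.37 in amputated, 6.29, 6.43 and 6.72 in unamputated hearts, -1.23 ± 0.18, adjusted p = 0.000572). On the negative arm, the nuclear repressor gene nr1d2b (1.19 ± 0.11, adjusted p = 1.16e-05), the cryptochrome gene cry2 (1.66 ± 0.17, adjusted p = 3.25e-05) and the repressor genes bhlhe41 (2.08) and bhlhe40 (0.98) rose, with per2 at 0.52. The PAR factor gene tefa (1.25) and the light-dependent DNA repair gene cry-dash (1.45), both known to follow light in zebrafish, rose, and the other probe set of cry-dash, at 0.21, was not called. That of nr1d2b was called at 0.24. Further cryptochrome genes cry4 (6.06, 6.06 and 6.31 on amputated, 7.43, 7.43 and 7.62 on unamputated arrays, -1.35 ± 0.10, adjusted p = 3.69e-06) and cry3b (-0.66 ± 0.090, adjusted p = 0.000323) fell, while cry1a (-0.14), clockb (-0.14) and per3 (0.0067) did not pass the test. Clock genes called with the erythrocyte covariate numbered 9 higher and 4 lower. The genes per2 and rorcb were no longer called with the erythrocyte covariate, nor per2 with the fold cutoff.

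**Figure D4:**
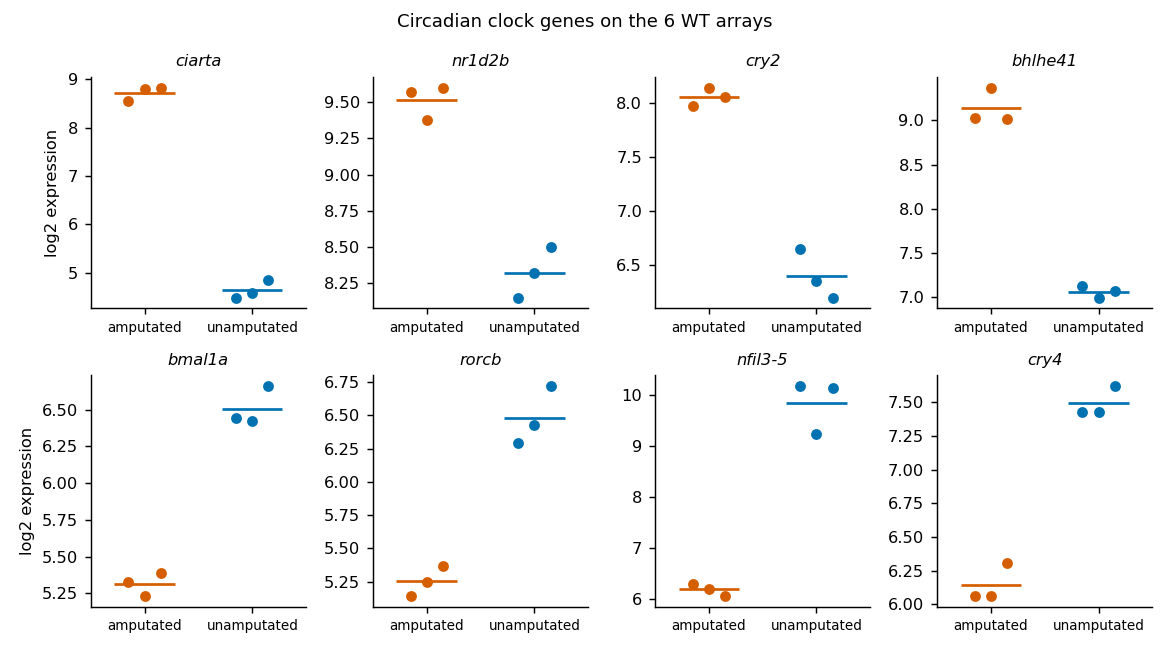
Each panel shows 1 of 8 circadian clock genes, with the log2 level per probe set on the y axis and the 3 amputated (orange) and 3 unamputated (blue) WT arrays on the x axis. Horizontal lines are group means, and the y axis has its own range in each panel. In each panel the 2 groups do not overlap, with ciarta, nr1d2b, cry2 and bhlhe41 higher and bmal1a, rorcb, nfil3-5 and cry4 lower in amputated hearts.

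Of the remaining cell types, red blood cells had 18 of 35 marker genes higher and 3 lower, with a median of 0.59. The anion exchanger gene slc4a1a read 11.13, 9.68 and 10.93 on amputated and 7.99, 9.01 and 7.76 on unamputated arrays (2.33 ± 0.51, adjusted p = 0.00647), and the haem synthesis gene alas2 read 11.36, 9.64 and 11.12, against 8.55, 8.64 and 8.04 (2.30 ± 0.44, adjusted p = 0.00302). WT amputated array 2 was the lowest of the amputated arrays for both genes. The adult globin gene hbba2 rose by 2.43 and hbaa1 by 0.74, and the embryonic globin genes hbae3 (0.23), hbbe2 (0.21) and hbbe3 (-0.053) did not pass the test. Endothelial and endocardial markers had 5 of 21 higher and 4 lower. The sphingosine receptor gene s1pr1 rose (0.91 ± 0.15, adjusted p = 0.00119), although its other probe set gave 0.13 and was not called, and the defining gene kdrl did not pass the test (-0.077). The genes alas2, hbaa1, hbba2 and slc4a1a were no longer called with the erythrocyte covariate, nor hbaa1 with the fold cutoff. That covariate is the mean of the red blood cell list itself, so a loss among red blood cell genes was built into the fit.

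Thrombocyte markers had 2 of 10 higher (20%) and 0 lower, against 11.7% and 14.5% over all genes. Nerve and glia markers had 3 of 26 higher (11.5%) and 1 lower (3.85%), led by the myelin gene mbpb (1.08 ± 0.14, adjusted p = 0.000216). The mean level of nerve and glia markers overlapped between amputated (5.04 to 5.12) and unamputated arrays (5.01 to 5.09).

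**Figure D5:**
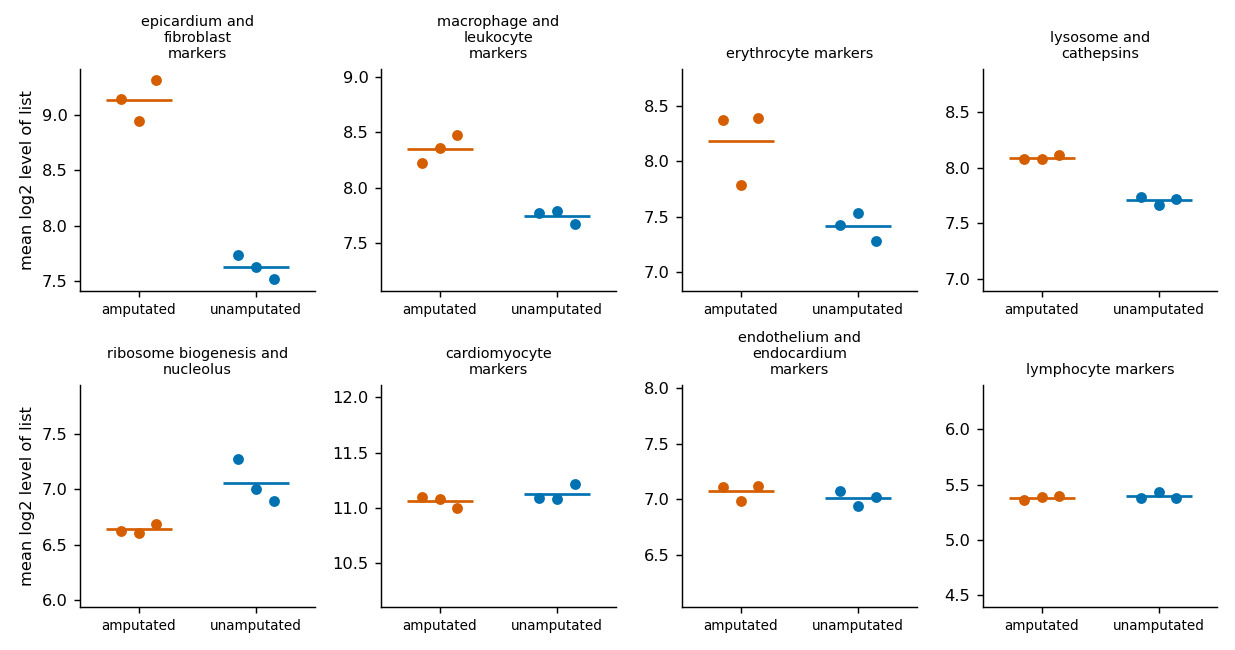
For 6 marker lists and for ribosome biogenesis and lysosome genes, points give the mean log2 level over the list's members on each WT array (3 amputated in orange, left, and 3 unamputated in blue, right), with lines at group means and a y axis that spans the same number of log2 units in every panel. The groups do not overlap for epicardium and fibroblast, macrophage and leukocyte, erythrocyte, lysosome and ribosome biogenesis genes, and they overlap for cardiomyocyte, endothelium and lymphocyte genes.

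Set against the response of dnHIF1a hearts, which shares no array with it, the WT response differed in 228 of 8793 genes (2.59%) by the limma test of the difference, and 173 of these had the smaller change in dnHIF1a. In dnHIF1a hearts 5.83% of genes were called higher and 5.13% lower. Of the 2304 genes called in WT, 575 were called in the same direction there and 13 in the opposite one. Among the 15 largest WT rises 8 differed and among the 15 largest falls 4. These genes were chosen for their size in WT, so their share is given as a description. The matrix gene postnb was 1.82 units higher after amputation in dnHIF1a and 4.42 in WT (difference of the responses -2.60 ± 0.33, adjusted p = 0.00342). For col1a2 the changes were 1.46 in dnHIF1a and 2.82 in WT (-1.36 ± 0.20, adjusted p = 0.00779), and for mmp2 0.93 and 2.45 (-1.51 ± 0.15, adjusted p = 0.00101). In each of these 3 genes the transgenic hearts had the smaller rise. On another probe set of each, unamputated means in dnHIF1a and WT were 7.26 and 5.95 (postnb), 8.41 and 7.49 (col1a2) and 7.69 and 6.78 (mmp2). Amputated means were 9.09 and 9.84, 10.21 and 10.92, and 8.55 and 9.19. There dnHIF1a hearts thus read higher than WT when unamputated and lower when amputated. The lines were not tested against each other within either state. For musk the change was 0.16 in dnHIF1a and 3.38 in WT (-3.23 ± 0.62, adjusted p = 0.0221), and for the oxidase subunit gene cox4i2 0.013 and 0.90 (-0.89 ± 0.13, adjusted p = 0.00819). The fibronectin gene fn1a (3.01 in dnHIF1a, 3.99 in WT) and mdka (2.43 and 3.56) were not called for a difference, with -0.99 ± 0.36, adjusted p = 0.179 and -1.13 ± 0.30, adjusted p = 0.0733. The progranulin gene grna had the larger rise in dnHIF1a (1.65, against 0.79 in WT, 0.86 ± 0.13, adjusted p = 0.00982). Of the ribosome biogenesis genes 7 of 88 fell in dnHIF1a, where the median was -0.16, and 1 was called for a difference. Of the erythrocyte markers 1 rose in dnHIF1a and 2 were called for a difference. Whether line background or blood content has a part in these differences was not tested beyond the erythrocyte covariate, with which 25 of 15502 probe sets were called for a difference, against 347 without it. With that covariate mmp2 was still called for a difference, and postnb (adjusted p = 0.0512), col1a2, musk, cox4i2 and grna were not. The call for musk was also lost with the trended and robust prior (adjusted p = 0.0715) and without dnHIF1a amputated array 1 or 2 or WT amputated array 1 or 3 (0.0525 to 0.0611). With the fold cutoff the calls of musk, cox4i2 and grna were lost (adjusted p = 0.0702, 0.0669 and 0.0815).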

How the data were processed

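Total RNA of whole hearts, 200 ng extracted with Trizol and labelled by a WT Sense Target protocol per the labels' protocols, was hybridised to 12 Affymetrix Zebrafish Genome arrays. The deposited values are the authors' log2 expression per probe set on every array. RMA, which corrects background, normalizes by quantiles and summarises probes, and limma are named in the submitters' processing notes, without versions or roles. The values carry no detection call, and the number of arrays limits the precision.

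Of 15617 probe sets 115 controls were left out. The platform table named 1 gene for 10795 probe sets, several for 135 and none for 4572, and old symbols were updated through the RefSeq gene table, in which 10711 of the symbols were found. Genes with several probe sets were represented by the one with the highest mean.

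The test was limma 3.58.1 in R 4.3.3 on all 12 arrays (4 groups, 1 shared spread, 8 residual degrees of freedom), with Benjamini-Hochberg adjustment over 15502 probe sets and a threshold of 0.05. The same fit tested the dnHIF1a minus the WT response. Tested on simulated data of the WT comparison with 15502 probe sets, it recovered 79.2% of 1.5-fold, 93.7% of 2-fold and 100% of 3-fold changes. There 72, 63 and 65 probe sets were changed, with noise independent between probe sets, and 15 unchanged ones were called. A far larger share was called in the real data, so these rates need not hold there.

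Named are the 15 genes with the largest rise and the 15 with the largest fall that were called, had groups that did not overlap and means of at least 4, and had more than a clone name, up to 4 called genes with the smallest p for each of 49 gene lists, and members chosen for their role after their values were seen. The members and the lists were chosen with earlier results of these data known. The labels used here number the replicates and name no pairing. Deviations from group means of same-numbered amputated and unamputated WT arrays correlated at 0.0635, 0.037 and -0.166. With so few arrays these values cannot exclude a pairing. Alternatives covered normalization, filters on dim or flat probe sets, priors, weights, a replicate block, a fold cutoff, the WT arrays alone, an erythrocyte covariate and each array left out. No set test was run on the lists.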

Additional observations from a re-analysis of the deposited data

Results flagged for a closer look

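47 genes named above differed between the lines in their response to amputation by the limma test of the difference, given here as the dnHIF1a response minus the WT response in log2 units. A negative value beside a gene that rose in WT means a smaller rise in dnHIF1a, or a fall where it exceeds the WT rise. A positive value beside a gene that fell in WT likewise means a smaller fall or a rise. The genes were chosen from those named for WT, so the share is no measure of how often the lines differed.

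Among matrix genes and the enzymes that work on them, the difference was -2.597 for postnb, -1.637 for thbs4b, -1.1 for sparc, -1.363 for col1a2, -1.27 for col1a1a, -1.023 for col5a2a and -0.78 for col6a3. It was -1.513 for mmp2, -0.9667 for mmp14a, -0.9433 for mmp14b and -1.193 for tgm2b, so each of these 11 genes rose less in dnHIF1a on the probe set that represents it. The other probe set of col5a2a, near the bottom of the scale, gave a difference of 0.01 and was not called. The secreted gene olfml3b differed by -1.51, the intermediate filament gene vim by -0.86, and the keratin genes krt15 and krt94 by -1.757 and -0.7167. For anxa1a it was -1.087.

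Genes of plasma proteins and membrane transport gave -1.537 for tfa, -0.75 for kng1, -1.08 for lrp1aa, -0.7133 for npc1 and -0.9367 for slc1a3a. The transferase genes gstt1a and gstt1b gave -1.13 and -0.66. Among signals and receptors, musk gave -3.227, and mstnb and cisha, which fell in WT, gave 0.6333 and 1.673. For grna, which rose more in dnHIF1a, it was 0.8567.

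The 4 immunoproteasome genes, all lower in WT, gave 1.6 for psmb8a, 1.347 for psmb12, 1.223 for psmb13a and 1.117 for psmb9a. The chaperonin genes hspd1 and hspe1 gave 0.9667 and 0.6133. In the cell cycle and p53 lists, ccng2 gave -2.257, tp53inp1 -1.647 and cdkn1bb -0.94. The polyamine gene odc1 gave 2.337 and the splicing factor gene sf3b5 gave 0.78. Muscle genes gave -1.337 for fbxo32, -1.167 for fhl1b, 0.88 for lbh, 0.59 for ldb3a and 0.6167 for pgam2. The oxidase gene cox4i2 gave -0.8867, the phosphatase gene dusp4 -0.9433, and the clock genes ciarta and per2 -1.257 and 0.6933.

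Of these calls 37 were lost with the erythrocyte covariate, 31 with the fold cutoff, those of cisha and musk with the trended and robust prior, and 17 without some single array.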

How the results depend on the processing

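No gene said above to have risen or fallen changed direction under any alternative run. The 3532 called probe sets became 2338 in a fit of the 6 WT arrays alone (1030 lower, and 758 genes lower), 755 with the fold cutoff of 1.2 (574 higher and 181 lower, or 364 and 142 genes) and 671 with the erythrocyte covariate (471 higher and 200 lower, or 273 and 159 genes). Of those 671, 639 were called in the same direction without the covariate, and the cause of the loss was not tested. With quantile normalization repeated, 3699 were called, 1626 higher and 2073 lower. With a single array left out, 2599 to 3449 were called. With the replicate block 3296 were, of which 3175 were shared with the fit without it, and the response differences of kng1 (-0.75, adjusted p = 0.0569) and sf3b5 (0.78, adjusted p = 0.0704) were no longer called. The 347 probe sets whose response differed between the lines became 41 with the fold cutoff, 25 with the covariate and 149 to 590 with a single array left out, lowest without dnHIF1a amputated array 1 and highest without WT unamputated array 3. Contractile, globin and ribosomal protein genes near the top of the scale, and genes under a level of 4, are poorly measured.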
